A study of Mus musculus with 27 samples.

Results

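Integrins are cell-surface receptors made of an α and a β subunit that bind matrix proteins or counter-receptors on other cells. The genes described here are 10 integrin subunit genes of the mouse, chosen by symbol from the 24293 gene symbols of the RNA tables, and all 10 passed the filter on low values. Of these, 4 make up the leukocyte group. Itgb2 encodes β2 (CD18), the chain shared by leukocyte integrins, and Itgam, Itgal and Itgax encode the α chains αM (CD11b), αL (CD11a) and αX (CD11c) that pair with it. The other 6 are Itga4, Itga6, Itgav, Itgb1, Itgb5 and Itgb8, which encode subunits of integrins without the β2 chain.

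The RNA libraries numbered 15, with 3 for each of 5 groups. Control microglia and microglia transduced with ND1 were each taken at day 2 and day 7 after doxycycline, and cultured cortical neurons formed the last group. All cells came from wild-type C57BL/6 cortex at postnatal day 1. The transduced cells received a lentivirus carrying ND1 and a second one carrying M2rtTA, a doxycycline-dependent activator, were then kept in Neurobasal medium with B27 and the growth factors BDNF, NT3 and GDNF, and were given doxycycline 1 time; the neurons were kept in Neurobasal medium with B27. The labels do not spell out ND1, do not give the medium of the control cells or the share of cells transduced, and do not say whether replicates were separate cultures, so the p-values measure only the spread between these samples. A bisulfite library of control microglia and 1 of ND1 cells, with no day given, provided the methylation of CpGs.

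As background, microglia are the resident macrophages of the brain. Their αMβ2 integrin (also called complement receptor CR3) takes part in the uptake of complement-coated material, and αLβ2 (LFA-1) binds ICAM molecules on other cells. A β2 α chain reaches the cell surface only as a pair with β2. Itgb1 is the most widely shared β chain, pairing with α4 and α6 among the α chains here; Itgav pairs with several β chains, among them β1, β5 and β8. The αvβ8 integrin is known for releasing active TGF-β from its latent complex.

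Levels are FPKM, sequenced fragments divided by transcript length in kilobases and by the library's mapped total, so levels of different genes can be compared per length. Changes are differences of group means on the log2(FPKM + 1) scale, which understates the change of weakly expressed genes, with the standard error (SE) and the Benjamini-Hochberg adjusted p of limma over all 13602 genes tested. A gene is said to have risen or fallen where the adjusted p was under 0.05 and the log2 change at least 1 in size. Per library, FPKM summed to between 429013 and 739846. An estimate of the worth of 1 read relative to the first control day 2 library ranged from 0.727 to 1.13. This estimate was the most common FPKM ratio over weakly expressed genes, not a count of reads. Neurod1 averaged 3288 FPKM ± 195 (SD, n = 3) in ND1 cells at day 2, 33.9 ± 2.40 in ND1 cells at day 7, 1.09 ± 0.0571 in control cells at day 2 and 1.56 ± 0.521 in control cells at day 7. The summed level of 12 microglial markers lay between 10026.5 and 10240.6 FPKM in control cells at day 2, between 15390 and 16205 at day 7, between 7778 and 8418 in ND1 cells at day 2, between 611 and 838 in ND1 cells at day 7, and between 35.1 and 38.5 in neurons. In such bulk samples, fewer microglia and less RNA of a gene per cell cannot be told apart.

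Control microglia expressed Itgb2, Itgb1 and Itgb5 above the α partners of these chains described here. Itgb2, the shared β2 chain, stood at 168, 162 and 163 FPKM in the 3 day 2 controls and at 217, 221 and 218 FPKM in those of day 7. In ND1 cells of day 2 it stood at 129.6, 138 and 144 FPKM, against 14.8, 10.9 and 11.8 FPKM in those of day 7. Neurons had 0.325, 0.349 and 0.384 FPKM. No library of one group overlapped another group, and the order from high to low was control day 7, control day 2, ND1 day 2, ND1 day 7 and neurons. At day 7 the ND1 level was 5.72% of the control level (4.98% to 6.77% in single libraries), a log2 change of -4.03 (SE 0.08, limma adjusted p = 2.35e-15). At day 2 the ND1 level was still 83.6% of the control level and the log2 change, -0.26, did not reach the threshold.

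The αM chain of complement receptor CR3, Itgam, was the most abundant β2 partner at day 2. It stood at 39.8, 36.8 and 40.2 FPKM in control cells at day 2, at 18.8, 21.4 and 21.7 FPKM in control cells at day 7, at 24.4, 27.5 and 27.8 FPKM in ND1 cells at day 2, at 3.09, 2.92 and 2.77 FPKM in ND1 cells at day 7 and at 0.226, 0.213 and 0.252 FPKM in neurons. The 5 groups did not overlap, and within the controls the later libraries were the lower ones. Itgam fell in ND1 cells at day 7 to 14.2% of the control level (log2 change -2.46, SE 0.06, limma adjusted p = 4.24e-14). The decline of control cells from day 2 to day 7, to 53.0%, stayed short of the fold threshold at a log2 change of -0.89 (SE 0.06, limma adjusted p = 3.18e-08).

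The αL chain of LFA-1, Itgal, took the opposite course in control cells and was already lower in ND1 cells at day 2. It stood at 16.0, 14.1 and 16.6 FPKM in control cells at day 2, at 19.7, 23.0 and 23.7 FPKM in control cells at day 7, at 6.49, 6.90 and 6.94 FPKM in ND1 cells at day 2, at 1.06, 0.841 and 0.959 FPKM in ND1 cells at day 7 and at 0.0590, 0.104 and 0.0696 FPKM in neurons. All 5 groups were separate, with control day 7 on top. Itgal fell to 43.5% of the control level at day 2 (log2 change -1.09, SE 0.07, limma adjusted p = 1.62e-08) and to 4.32% at day 7 (log2 change -3.56, SE 0.07, limma adjusted p = 4.51e-15). When FPKM was rescaled to a constant library sum (TPM), the day 2 change was -0.96 and missed the fold threshold.

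The αX chain Itgax, used as a marker of dendritic cells and of activated microglia, was the member whose ND1 and control libraries overlapped at both days. It stood at 5.50, 5.75 and 5.30 FPKM in control cells at day 2, at 5.52, 4.98 and 5.92 FPKM in ND1 cells at day 2, at 0.748, 0.630 and 0.638 FPKM in control cells at day 7, at 0.652, 0.571 and 0.702 FPKM in ND1 cells at day 7 and at 0.0323, 0.0374 and 0.0562 FPKM in neurons. The day separated the libraries and the virus did not. Itgax fell in control cells from day 2 to day 7 (log2 change -1.96, SE 0.06, limma adjusted p = 5.22e-12) and in ND1 cells over the same days (log2 change -1.98, SE 0.06, limma adjusted p = 2.84e-13). The ND1 change was -0.01 at day 2 (limma adjusted p = 0.865) and -0.03 at day 7 (limma adjusted p = 0.657), both with an SE of 0.06, and the difference between these changes was -0.01 (SE 0.08, limma adjusted p = 0.865). The sign of these near-zero changes was not stable: with TPM the day 7 change was 0.32 (limma adjusted p = 0.000521), against a median of 0.62 over all tested genes. The ND1 day 7 level, 95.5% of control, rested on values under 1 FPKM.

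**Figure D1:**
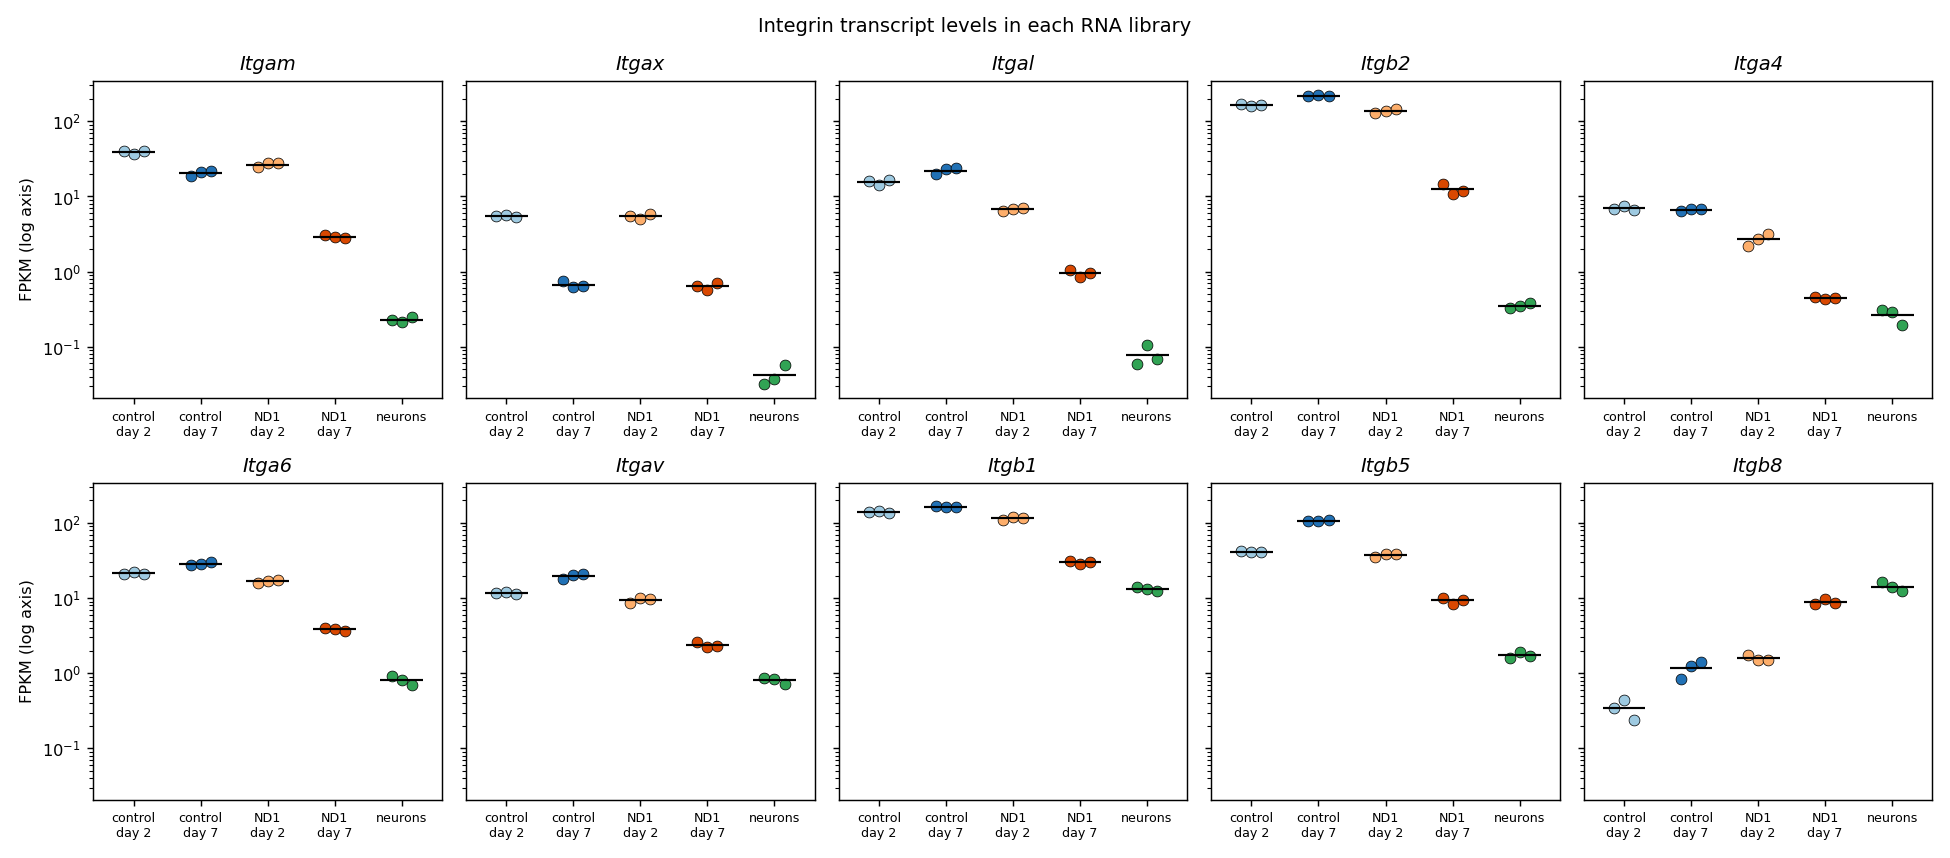
FPKM of the 10 integrin genes in each of the 15 RNA libraries on a log axis shared by all panels; each point is 1 library and each bar the mean of the 3 libraries of a group. Itgax points of ND1 and control cells of the same day lie together, and Itgb8 alone is highest in neurons, where its libraries lie between 12.6 and 16.3 FPKM.

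Among the α chains that do not pair with β2, Itga4, which pairs with β1 or β7 and binds VCAM-1 and fibronectin, fell early in ND1 cells. Its levels were 6.78, 7.45 and 6.70 FPKM in control cells at day 2, 6.36, 6.76 and 6.88 FPKM in control cells at day 7, 2.22, 2.69 and 3.15 FPKM in ND1 cells at day 2, 0.455, 0.426 and 0.452 FPKM in ND1 cells at day 7 and 0.313, 0.287 and 0.195 FPKM in neurons. The control groups overlapped and the other groups were separate. Itga4 fell to 38.5% of the control level at day 2 (log2 change -1.12, SE 0.08, limma adjusted p = 2.05e-08) and to 6.67% at day 7 (log2 change -2.41, SE 0.08, limma adjusted p = 5.19e-13).

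Itga6, a chain of laminin receptors, stood at 20.9, 22.4 and 21.0 FPKM in day 2 controls and at 28.0, 28.5 and 29.8 FPKM in day 7 controls. ND1 cells had 15.9, 17.1 and 17.6 FPKM at day 2 and 3.99, 3.87 and 3.70 FPKM at day 7, and neurons 0.925, 0.808 and 0.693 FPKM. The groups did not overlap, and ND1 cells lay below the control cells of their day on both days. The fall passed the threshold at day 7, to 13.4% of control (log2 change -2.62, SE 0.05, limma adjusted p = 4.33e-15), and not at day 2 (log2 change -0.33).

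Itgav, the αv chain of vitronectin and TGF-β activating integrins, stood at 11.8, 12.3 and 11.3 FPKM in day 2 controls and at 18.0, 20.4 and 20.7 FPKM in day 7 controls. ND1 cells had 8.76, 10.1 and 9.79 FPKM at day 2 and 2.58, 2.21 and 2.30 FPKM at day 7, and neurons 0.875, 0.833 and 0.710 FPKM. Again no groups overlapped and the order was that of Itgb2. Itgav fell at day 7 to 12% of control (log2 change -2.62, SE 0.07, limma adjusted p = 4.61e-14), while its log2 change at day 2 was -0.28.

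Itgb1, the common β1 chain, was the member with the highest level in ND1 cells at day 7. It stood at 139.7, 143 and 134 FPKM in control cells at day 2, at 169.9, 161 and 163 FPKM in control cells at day 7, at 110.3, 119 and 118 FPKM in ND1 cells at day 2, at 30.9, 28.9 and 29.9 FPKM in ND1 cells at day 7 and at 13.9, 13.3 and 12.5 FPKM in neurons. The groups were separate in the same order as those of Itgb2, with the neurons closer to the ND1 day 7 cells. Itgb1 fell at day 7 to 18.2% of the control level (log2 change -2.42, SE 0.05, limma adjusted p = 1.87e-15), and the log2 change at day 2 was -0.26. Of the 9 members that were lower in neurons than in control cells, it kept the largest neuronal share, 8.04% of the control day 7 level.

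The β5 chain Itgb5, which pairs with αv in a receptor for vitronectin and for the phagocytic bridge protein Mfge8, rose in control cells with time. From 42.2, 41.1 and 41.0 FPKM at day 2 it reached 106, 107 and 109 FPKM at day 7. ND1 cells had 35.7, 38.2 and 38.5 FPKM at day 2 and 10.1, 8.38 and 9.50 FPKM at day 7, and neurons 1.59, 1.94 and 1.68 FPKM. The controls thus moved apart from day 2 to day 7, and the ND1 cells of day 7 lay below both control groups. The rise of the controls was 2.59-fold (log2 change 1.35, SE 0.06, limma adjusted p = 2.67e-10). At day 7 the ND1 level was 8.68% of control (log2 change -3.40, SE 0.06, limma adjusted p = 1.07e-15), while the day 2 change of -0.14 turned to 0.03 with TPM.

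The β8 chain Itgb8, which pairs with αv, was the one member that rose in ND1 over control cells. It stood at 0.345, 0.444 and 0.238 FPKM in control cells at day 2, at 0.827, 1.25 and 1.40 FPKM in control cells at day 7, at 1.73, 1.49 and 1.51 FPKM in ND1 cells at day 2, at 8.46, 9.79 and 8.57 FPKM in ND1 cells at day 7 and at 16.3, 13.9 and 12.6 FPKM in neurons. The order of the groups was the reverse of that of Itgb2 for ND1 cells and neurons, and no libraries of different groups overlapped. Itgb8 rose 7.70-fold in ND1 over control cells at day 7 (log2 change 2.21, SE 0.11, limma adjusted p = 7.29e-11) and 5.68-fold in ND1 cells from day 2 to day 7 (log2 change 1.95, SE 0.11, limma adjusted p = 3.73e-10). At day 2 the level was 4.60 times that of control with a log2 change of 0.94 (SE 0.11, limma adjusted p = 4.00e-06), just short of the fold threshold; with a pseudocount of 0.1 it was 1.95, and with TPM 1.26, both past it. Itgb8 is also expressed by astrocytes. The 8 astrocyte markers summed to between 37.0 and 37.8 FPKM in ND1 cells at day 7, between 20.9 and 23.4 in ND1 cells at day 2, between 74.7 and 78.4 in control cells at day 7, between 19.6 and 21.3 in control cells at day 2 and between 22.6 and 23.7 in neurons. From day 2 to day 7 in ND1 cells, 2 of 7 tested astrocyte markers rose and 0 fell, beside 22.6% and 21.1% of all tested genes. In ND1 over control cells at day 7, 0 rose and 3 fell, beside 25.7% and 24.5% of all tested genes. The 8 fibroblast and mural markers summed to between 36.6 and 39.6 FPKM in ND1 cells at day 7, between 25.6 and 35.3 in control cells at day 7, between 13.5 and 14.4 in neurons, between 6.92 and 8.38 in ND1 cells at day 2 and between 1.18 and 2.35 in control cells at day 2. Of the 6 that were tested, 6 rose and 0 fell in ND1 cells from day 2 to day 7, beside 22.6% and 21.1% of all tested genes. Over control cells at day 7, 4 of them rose in ND1 cells and 0 fell, beside 25.7% and 24.5%. The 12 neuron markers summed to between 25.4 and 29.0 FPKM in control cells at day 2 and between 24.1 and 32.2 at day 7. They summed to between 704 and 872 FPKM in ND1 cells at day 2 and between 4357 and 4359 at day 7. In neurons the sum lay between 3593 and 3910 FPKM. All 12 neuron markers rose in ND1 cells from day 2 to day 7 and over control cells at day 7, beside 22.6% and 25.7% of all tested genes. The part of any of these cell types in the result was not tested.

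Counted together, 2 members fell and 0 rose in ND1 cells at day 2, Itgal and Itga4, when 0.618% of all tested genes fell and 9.09% rose. By adjusted p alone the day 2 count was 9 of 10, against 68.0% of all tested genes. At day 7, 8 members fell and 1 rose, against 24.5% and 25.7% of all tested genes. The 4 leukocyte genes had a median log2 change of -3.01 at day 7 and the other 6 a median of -2.52, beside 0.04 over all tested genes. Libraries of ND1 and control cells did not overlap for 9 members on each day, 8 of them lower and 1 higher in ND1 cells; over all genes 44.3% were lower and 46.6% higher without overlap at day 7, and 42.4% and 35.3% at day 2. The ND1 change differed between the days for 9 members, 8 more negative and 1 more positive at day 7, where 20.8% and 20.5% of all tested genes did so; the exception was Itgax.

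In control cells from day 2 to day 7, Itgb5 rose and Itgax fell, while 3.90% of all tested genes rose and 3.79% fell; by adjusted p alone 9 members passed, against 65.8% of genes. The median log2 change was -0.24 over the 4 leukocyte genes and 0.55 over the other 6. In ND1 cells from day 2 to day 7, 9 members fell and Itgb8 rose, beside 21.1% and 22.6% of all tested genes. On the log2(FPKM + 1) scale, the largest of these falls was that of Itgb2 (log2 change -3.36) and the smallest that of Itga4 (log2 change -1.34). By mean level the order differed. Itgb2 kept the least of its ND1 day 2 level, 9.11%, and Itgb1 kept the most of those that fell, 25.9%, with Itga4 at 16.5%.

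**Figure D2:**
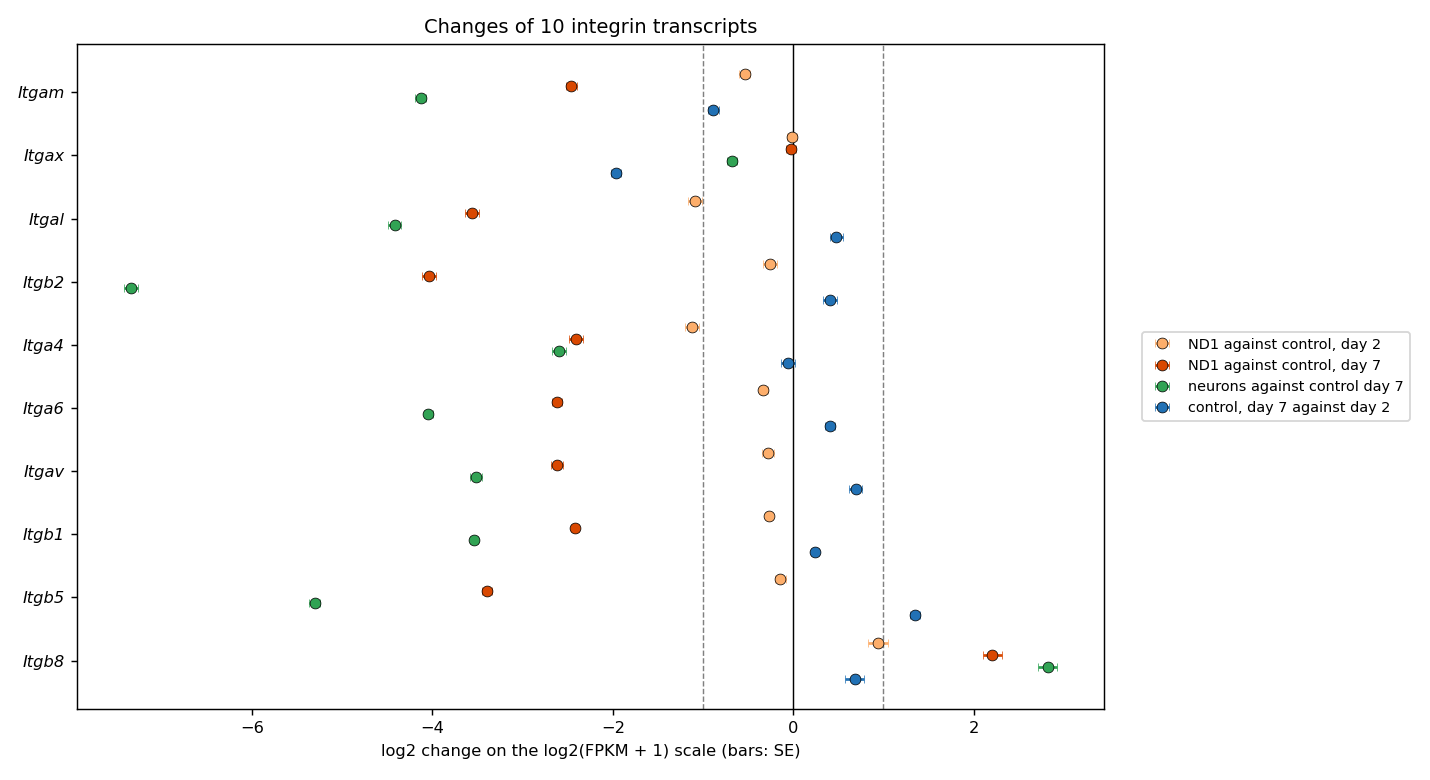
Log2 changes of the 10 integrin genes in 4 comparisons on the log2(FPKM + 1) scale, with bars for the SE and dashed lines at the fold threshold; the comparisons with control day 7 share its libraries. Itgb2 has the most negative values at day 7 (-4.03 in ND1 cells, -7.34 in neurons), Itgax lies near 0 in both ND1 comparisons, and Itgb8 lies to the right in all 4.

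How much of each level remained at day 7 differed between subunits that pair. The share of the control day 7 level ranged among the 8 members that fell from 4.32% for Itgal to 18.2% for Itgb1. For comparison, 323 genes with at least 50 FPKM in control cells at day 7 and a neuronal mean of at most 1% of that level, Itgb2 among them, kept a median of 5.11% (5th to 95th percentile, 2.73% to 8.14%). Itgb2 at 5.72% and Itgal at 4.32% lay within this range, and Itga4 at 6.67% did as well. Itgb5 at 8.68%, Itgav at 12%, Itga6 at 13.4%, Itgam at 14.2% and Itgb1 at 18.2% lay above its 95th percentile, as did Itgax at 95.5%. The reference genes were picked for a near absence from neurons, and the neuronal mean was above 1% of control day 7 for Itgam (1.12%), Itgb5 (1.62%), Itga6 (2.81%), Itga4 (3.97%), Itgav (4.09%), Itgax (6.24%) and Itgb1 (8.04%). With the neuronal mean subtracted from both groups, the remaining shares were 13.2% for Itgam, 11% for Itgb1, 10.9% for Itga6, 8.26% for Itgav, 7.18% for Itgb5 and 2.81% for Itga4. TPM gave larger shares for every member, 9.0% for Itgb2 and 22.3% for Itgam among them.

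The unequal shares altered the balance within the β2 family. The summed FPKM of the α chains that pair with β2 (Itgam, Itgal, Itgax and Itgad), divided by that of Itgb2, was 0.366 ± 0.0153 (SD, n = 3) in control cells at day 2 and 0.198 ± 0.0153 at day 7. In ND1 cells it was 0.283 ± 0.00219 at day 2 and 0.366 ± 0.0380 at day 7. Libraries of control cells at day 7 (0.181, 0.204 and 0.210) lay below those of ND1 cells at day 7 (0.325, 0.399 and 0.374) with no overlap, and this was a description without a test. In neurons the ratio was 1.14 ± 0.0557, formed from levels under 0.4 FPKM. Itgad (αD) itself stayed under 0.08 FPKM in every library.

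Which α chain led also depended on the group. The ratio of Itgam to Itgal lay between 2.42 and 2.61 in control cells at day 2 and between 0.915 and 0.955 at day 7, so that Itgal was above Itgam in all 3 libraries by then. In ND1 cells the ratio lay between 3.75 and 4.0 at day 2 and between 2.89 and 3.48 at day 7, above the control range of either day. As shares of the β2 partners, Itgam held 47.5% ± 0.379 (SD, n = 3) and Itgax 1.56% ± 0.296 in control cells at day 7, against 64.6% ± 2.43 and 14.2% ± 1.45 in ND1 cells at day 7.

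The makeup of the 4 β chains differed between the groups. Their summed level was 492 FPKM ± 1.58 (SD, n = 3) in control cells at day 7, 60.7 ± 3.23 in ND1 cells at day 7 and 29.6 ± 2.52 in neurons. Itgb2 made up 44.5% ± 0.605 of this sum in control cells at day 7, 20.5% ± 2.21 in ND1 cells at day 7 and 1.2% ± 0.204 in neurons. The share of Itgb8 ran the other way, with 0.236% ± 0.0613, 14.8% ± 1.91 and 48.1% ± 2.29. Itgb1 held 33.5% of the sum in control cells at day 7, 49.3% in ND1 cells at day 7 and 44.8% in neurons, so its share was highest in the ND1 cells. The 6 α chains summed to 98.6 FPKM ± 6.20 in control cells at day 7, to 11.2 ± 0.557 in ND1 cells at day 7 and to 2.23 ± 0.231 in neurons, where Itga6 (36.2% ± 1.64) and Itgav (36.1% ± 0.326) held most of it.

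**Figure D3:**
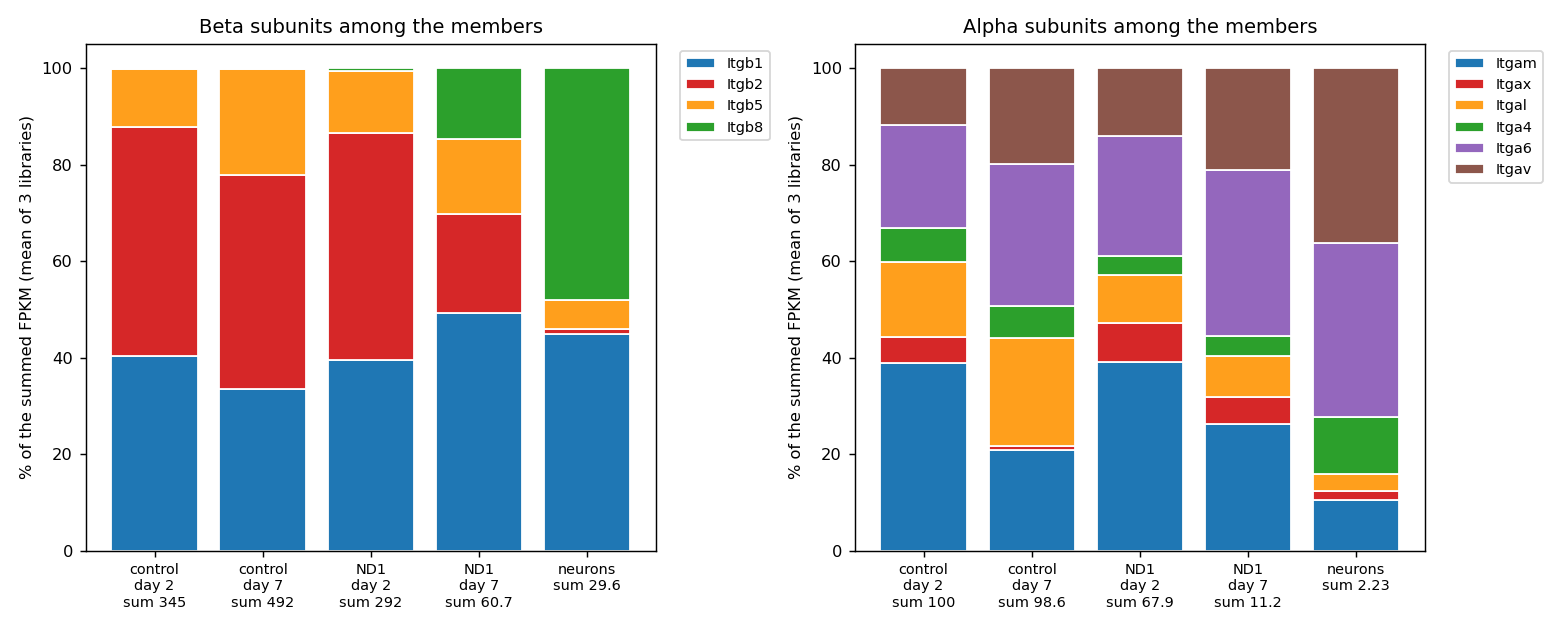
Share of each gene in the summed FPKM of the 4 β chains (left) and the 6 α chains (right) in each group, as the mean of 3 libraries, with the mean sum under each bar. The Itgb2 share drops from 44.5% in control cells at day 7 to 20.5% in ND1 cells at day 7 and 1.2% in neurons, where Itgb8 holds 48.1%.

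Cortical neurons were compared with the same control libraries as the ND1 cells, so the values of both comparisons are not independent. Against control cells at day 7, 8 members were lower in neurons and Itgb8 was higher (log2 change 2.82, SE 0.11, limma adjusted p = 3.77e-12), where 25.3% and 28.1% of all tested genes were. Itgax, with -0.68, missed the fold threshold, and with a pseudocount of 0.1 its log2 change was -2.44. Against control cells at day 2 all 10 passed, 9 lower and 1 higher, beside 25.8% and 29.3% of genes.

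Between ND1 cells at day 7 and neurons, 5 members were higher in ND1 cells and 0 lower, beside 7.29% and 6.24% of all tested genes. These were Itgb2 (log2 difference 3.31, SE 0.08, limma adjusted p = 2.29e-13), Itgb5 (1.91), Itgam (1.67), Itga6 (1.43) and Itgb1 (1.12). Itgav, Itgal and Itgax had log2 differences of 0.90, 0.86 and 0.65 and passed with a pseudocount of 0.1 (1.45, 2.57 and 2.38) or with TPM (1.17, 1.41 and 1.14), which brought the count to 8. The share of all tested genes passing with either setting was not counted, so this count has no matching background. Itga4 differed by 0.19, or by -0.10 after quantile normalization. Itgb8 stood in ND1 cells at 62.7% of the neuronal level (log2 difference -0.61, SE 0.11, limma adjusted p = 0.000156), and the highest ND1 library lay below the lowest neuronal one. By adjusted p alone all 10 members differed, against 75.1% of genes. All 11 tested microglial markers were also higher in ND1 cells at day 7 than in neurons, and their part in the result was not tested.

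The other integrin subunits were mostly weak. Of 17 further subunit genes, 7 passed the filter on low values and none of the other 10 reached 1 FPKM in any library. Itga5, the α chain of the fibronectin receptor, fell in ND1 cells at day 7 from 24.2 FPKM ± 2.09 (SD, n = 3) to 2.65 ± 0.304 (log2 change -2.78, SE 0.07, limma adjusted p = 2.19e-14). Itga9 fell from 7.36 ± 0.292 to 0.855 ± 0.0782 FPKM, a log2 change of -2.17 (SE 0.05, limma adjusted p = 6.45e-15). The remaining 5 did not pass at day 7: the log2 change was 0.53 for Itga3, 0.32 for Itga1, 0.17 for Itga8, -0.30 for Itga7 and -0.77 for Itgb3. Itga7, a laminin receptor chain, averaged 1.43 ± 0.204 FPKM in ND1 cells and 0.20 ± 0.0415 in control cells at day 2. The log2 difference was 1.01 (SE 0.08). Itga7 reached 1 FPKM only in the 3 ND1 libraries of day 2, so it passed the filter through that group alone. No test of this difference is therefore given. In ND1 cells at day 7 it stood at 0.227 ± 0.0328 FPKM.

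Of 19 tested ligand genes of integrins, 6 rose and 5 fell in ND1 cells at day 7, with a median log2 change of -0.28; the shares over all tested genes, 25.7% and 24.5%, were near these counts. Spp1 (osteopontin, a ligand of αv and α4 integrins) fell from 1903 FPKM ± 62.6 (SD, n = 3) to 130.7 ± 8.79 (log2 change -3.86, SE 0.06, limma adjusted p = 4.42e-16). Mfge8, the bridge between apoptotic cells and αv integrins, fell from 67.3 ± 9.13 to 13.0 ± 1.49 FPKM, a log2 change of -2.29 (SE 0.09, limma adjusted p = 5.69e-12). Edil3, a secreted αv ligand related to Mfge8, rose from 0.235 ± 0.128 to 6.96 ± 0.364 FPKM, a log2 change of 2.69 (SE 0.08, limma adjusted p = 1.31e-13). Lamb1, a laminin chain, rose from 0.265 ± 0.216 to 5.11 ± 0.120 FPKM, a log2 change of 2.28 (SE 0.09, limma adjusted p = 1.00e-11).

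Of 12 tested genes of TGF-β activation and response, 1 rose and 5 fell at day 7, with a median log2 change of -0.53, beside 25.7% and 24.5% of all tested genes. Nrros, which tethers latent TGF-β1 to the surface of microglia, fell from 76.5 FPKM ± 1.44 (SD, n = 3) to 3.02 ± 0.518 (log2 change -4.28, SE 0.07, limma adjusted p = 6.84e-16). Tgfb1 itself fell from 163 ± 10.3 to 8.58 ± 1.41 FPKM, a log2 change of -4.11 (SE 0.08, limma adjusted p = 2.91e-15). Ltbp4, a latent TGF-β binding protein, was the one that rose, from 0.158 ± 0.0304 to 1.57 ± 0.135 FPKM, a log2 change of 1.15 (SE 0.06, limma adjusted p = 1.18e-10). Itgb8 thus rose at a day when Itgav, Tgfb1 and Nrros were all lower in the same libraries.

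The cytoplasmic proteins that activate integrins and link them to actin were mostly lower. Of 31 tested genes, 4 rose and 20 fell at day 7, beside 25.7% and 24.5% of all tested genes, with a median log2 change of -1.83. Fermt3 (kindlin-3, the activator of leukocyte integrins) fell from 188 FPKM ± 7.45 (SD, n = 3) to 7.87 ± 1.13 (log2 change -4.42, SE 0.07, limma adjusted p = 5.19e-16). Lyn, a Src-family kinase of blood cells, fell from 239 ± 9.88 to 12 ± 1.43 FPKM, a log2 change of -4.21 (SE 0.06, limma adjusted p = 4.58e-16). Bcar1 (p130Cas, an adhesion scaffold) rose from 2.35 ± 0.411 to 15.6 ± 0.936 FPKM, a log2 change of 2.31 (SE 0.09, limma adjusted p = 5.87e-12). Rasgrp2, an exchange factor for the integrin activator Rap1, rose from 1.75 ± 0.164 to 11.3 ± 0.278 FPKM, a log2 change of 2.16 (SE 0.07, limma adjusted p = 4.15e-13).

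Some paralogues, chosen after their values were seen, moved in opposite directions, Fermt2 to Fermt3 and Ptk2 to Ptk2b. Other related genes of the same list, such as Tln1 and Tln2 or Parva, Parvb and Parvg, were not compared in this way. Fermt2 (kindlin-2) rose from 3.02 FPKM ± 0.344 (SD, n = 3) to 12.1 ± 0.249 as Fermt3 fell (log2 change 1.71, SE 0.06, limma adjusted p = 3.33e-12). Ptk2 (focal adhesion kinase) rose from 6.86 ± 0.276 to 28.3 ± 0.951 FPKM, a log2 change of 1.90 (SE 0.04, limma adjusted p = 3.24e-15), while its relative Ptk2b (Pyk2) fell from 99.8 ± 4.36 to 7.98 ± 1.25 FPKM, a log2 change of -3.50 (SE 0.07, limma adjusted p = 5.35e-15).

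**Figure D4:**
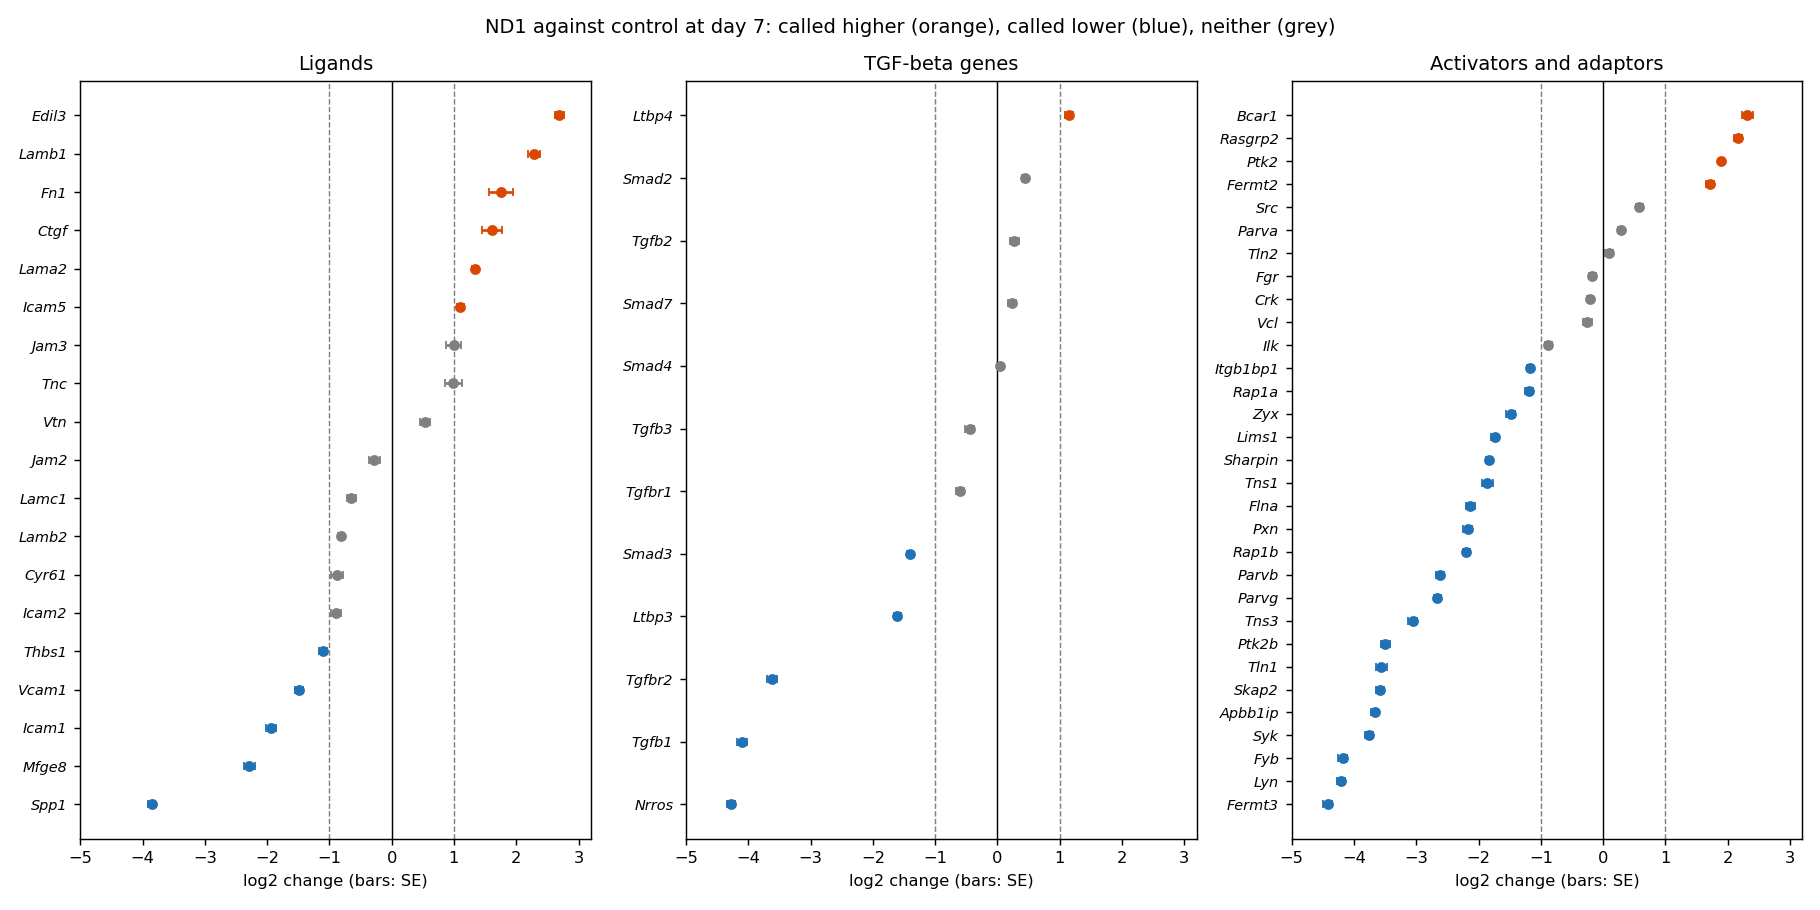
Log2 change in ND1 against control cells at day 7 of every tested gene among the integrin ligands, the TGF-β genes and the integrin activators and adaptors, with bars for the SE and dashed lines at the fold threshold. Of the activators and adaptors, 20 of 31 lie on the left as called lower, down to Fermt3 at -4.42, and 4 on the right as called higher, up to Bcar1 at 2.31.

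For each member, the 2 tested genes with the most similar course over the 15 libraries were found by the root mean square difference of their centred log2(FPKM + 1) values. Itgb2 was nearest to Nckap1l (0.0808), a subunit of the actin-regulating WAVE complex in blood cells, and Lyn (0.111). Itgb8 was nearest to Rasgrp2 (0.112) and Aldh5a1 (0.118). Itgav was nearest to Wnk1 (0.0693) and Elk3 (0.117), and Itgb1 to Bcl2l11 (0.0888) and Smarcd2 (0.102). Itgam was nearest to Tagln2 (0.158) and Cpt1a (0.186), Itgal to 1810011H11Rik (0.142) and Myof (0.165), Itga4 to Plcb2 (0.125) and Bcl6 (0.133), Itga6 to Myh9 (0.124) and Plxnb2 (0.127), and Itgb5 to Lmo2 (0.133) and Man1c1 (0.181). The least close matches were those of Itgax, with Vwf (0.243) and Ptgir (0.244). No member had another member among its nearest genes.

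In the genome (GRCm38.p6, the mm10 build of the files), the α chains of the β2 family lay together on chromosome 7, with Itgal at 127296139 to 127335137, Itgam at 128062640 to 128118491 and Itgax at 128129526 to 128150657. Itgax began 11035 bases after the end of Itgam. Itga6, Itga4 and Itgav lay on chromosome 2, Itgb1 on chromosome 8, Itgb2 on chromosome 10, Itgb8 on chromosome 12 and Itgb5 on chromosome 16.

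Promoter sequences of RefSeq on this build were matched for 7 of the 10 genes, not for Itgal, Itgb2 and Itga6. The CpG methylation of both libraries bears on these promoters, and 4 of them are shown as the 250 bases before the start site that the promoter table gives, with every CpG in capitals; for Itgax that site, 128129550, lies inside the gene span given above, so the last bases shown belong to that span. They are Itgam and Itgax as neighbours with few CpGs, Itgb8 as the gene that rose in ND1 cells, and Itgb1 as the most CpG-rich of the 7. Their positions are chr7:128062390-128062639 (+ strand), chr7:128129300-128129549 (+ strand), chr12:119238277-119238526 (- strand) and chr8:128685404-128685653 (+ strand).
Itgam: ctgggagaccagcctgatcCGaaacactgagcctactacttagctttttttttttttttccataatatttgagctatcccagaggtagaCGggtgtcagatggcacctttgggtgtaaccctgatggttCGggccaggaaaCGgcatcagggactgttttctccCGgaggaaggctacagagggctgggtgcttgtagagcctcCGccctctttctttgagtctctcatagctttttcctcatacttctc
Itgax: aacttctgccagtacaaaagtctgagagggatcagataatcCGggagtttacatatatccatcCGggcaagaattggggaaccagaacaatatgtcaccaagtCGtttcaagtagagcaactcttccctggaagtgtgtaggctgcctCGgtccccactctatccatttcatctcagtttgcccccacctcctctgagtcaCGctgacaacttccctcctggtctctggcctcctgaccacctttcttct
Itgb8: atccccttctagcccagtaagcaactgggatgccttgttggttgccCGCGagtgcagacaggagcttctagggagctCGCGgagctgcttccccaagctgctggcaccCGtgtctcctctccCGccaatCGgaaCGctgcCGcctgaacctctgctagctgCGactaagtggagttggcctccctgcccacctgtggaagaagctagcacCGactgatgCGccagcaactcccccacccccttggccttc
Itgb1: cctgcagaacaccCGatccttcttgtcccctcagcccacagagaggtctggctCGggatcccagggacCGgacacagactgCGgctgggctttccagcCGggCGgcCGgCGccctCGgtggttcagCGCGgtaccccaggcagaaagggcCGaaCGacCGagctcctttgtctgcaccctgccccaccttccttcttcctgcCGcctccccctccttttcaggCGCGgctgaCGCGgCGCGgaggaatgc

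In the window of 250 bases before to 50 bases after the start, the Itgam and Itgax promoters held 6 and 5 CpGs, and those of Itga4, Itgb8, Itgb5, Itgav and Itgb1 held 10, 13, 20, 24 and 27; the median of 32851 promoters was 7. For Itgav the start site used, 83724397, lies inside the gene span, which begins at 83722303. The Itgav windows given here and below do not reach the first base of that span. The letters GAGGAA on either strand, a core string of sites for the myeloid factor PU.1, occurred 3 times in the Itgam window, 84 bases before the start on the gene's strand and, as TTCCTC, 15 bases before and 32 bases after it. They occurred 2 times in the Itgav window and 1 time in that of Itgb1, and 28.3% of all promoter windows held them. Of 2 E-box strings searched on both strands, CAGATG occurred in the Itgam window (17.2% of all promoters held it) and CAGCTG in those of Itgax, Itga4 and Itgb5 (16.3% of all promoters).

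The deposited CpG fractions gave no large difference between control and ND1 cells at these promoters. With 1 library a group and no read counts, the depth is unknown and there is no test. Over the shared CpGs from 1000 bases before to 1000 after the start, the fraction in ND1 minus that in control cells was 0.0108 at Itgam, 0.00638 at Itgax, 0.00325 at Itga4, -0.00218 at Itgb1, -0.00254 at Itgb5, -0.00293 at Itgav and -0.0141 at Itgb8. All 7 lay inside the range from -0.0499 to 0.0567 that held the middle 95% of 30474 promoters.

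The members differed from each other far more than the libraries did. Over the same shared CpGs, Itga4, Itgav, Itgb1, Itgb5 and Itgb8 had mean control fractions of 0.0467, 0.0216, 0.0160, 0.0296 and 0.0486, the first 4 with transcripts that fell and Itgb8 with one that rose in ND1 cells at day 7. Itgam had a mean of 0.433 in control and 0.444 in ND1 cells, and Itgax 0.692 and 0.699. Near the start both genes lay below these means. In the window of the printed bases and 50 more, Itgam had 0.180 in control and 0.192 in ND1 cells, and Itgax 0.205 and 0.165. At Itgam the CpGs after the start also stayed low, at most 0.382 in control and 0.370 in ND1 cells. At Itgax those after the start were at least 0.711 in control and 0.794 in ND1 cells. The single CpGs of the Itgam sequence above ran from 0.538 at 231 bases before the start through 0.122, 0.0385, 0.0385 and 0.174 to 0.167 at 46 bases before it in control cells, and from 0.750 through 0, 0.125, 0 and 0.20 to 0.0769 in ND1 cells. Over whole gene spans, all 10 genes had mean fractions between 0.537 and 0.871, and ND1 minus control ranged from -0.00575 at Itgb8 to 0.0137 at Itgb5.

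**Figure D5:**
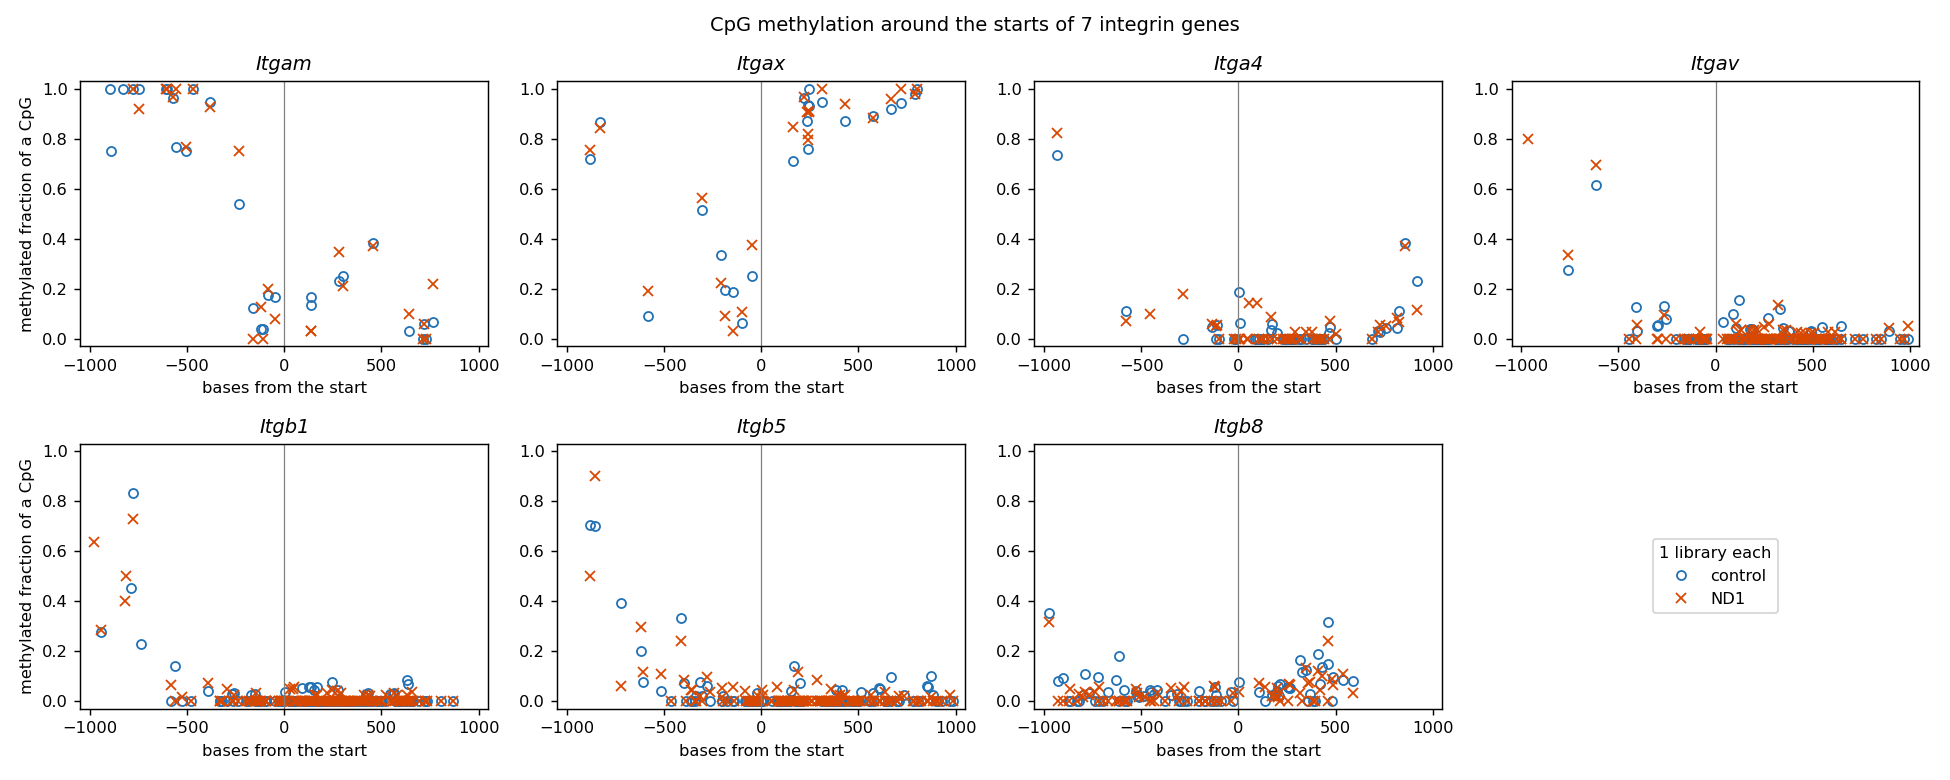
Methylated fraction of each CpG within 1000 bases of the start of 7 integrin genes in the control (circles) and the ND1 (crosses) bisulfite library, by distance from the start in bases, upstream to the left. Itgax (mean over shared CpGs of 0.692 in control cells) has methylated CpGs on both sides of a dip near the start. Itgam (mean of 0.433) is methylated upstream only, with CpGs of at most 0.382 after the start in control cells. The other 5 genes are low across the start.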

How the data were processed

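RNA was measured in 15 libraries, 3 for each of 5 groups, and CpG methylation in 2 libraries; 10 ChIP samples of the series of 27 were not analysed here. The RNA files hold the authors' gene-level FPKM; TopHat, Bowtie2, Cuffdiff and Cufflinks on mm10 are named in the submitters' processing notes, with no versions. The bisulfite files hold the methylated fraction per CpG as deposited, from post-bisulfite adaptor tagging per the labels' protocols; the tools for it were not given in the sources used here. Neither kind of file holds read counts, so no counting interval is given.

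The 13602 genes that reached 1 FPKM in 3 or more libraries were fitted on log2(FPKM + 1) in limma 3.58.1 (R 4.3.3), with 5 group means, an intensity trend, 10 residual degrees of freedom and 8 comparisons, and p-values adjusted by Benjamini-Hochberg over all of them. A pseudocount of 0.1, other filters, quantile normalization, TPM, no trend, a replicate block and each library left out were tried as alternatives. The procedure was tested on simulated data. Every member was named, and of the ligand, TGF-β and adaptor lists the 4 called genes with the largest change at day 7, 2 in each direction where there were 2. The members and the lists were chosen with earlier results of these data known. Of 30 pairs of equally numbered libraries, 2 had a correlation of deviations over 0.1, so the numbers were not taken as pairs. Promoters needed at least 5 shared CpGs. From the adaptor list 1 gene is not reported here, and the counts and median of that list leave it out.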

Additional observations from a re-analysis of the deposited data

Results flagged for a closer look

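For 9 members the ND1 change differed between day 7 and day 2, by the interaction term of the limma fit over all tested genes. Of all tested genes, 20.8% were more negative and 20.5% more positive at day 7 by the same threshold. Sizes are on the log2(FPKM + 1) scale, so they do not rank the members by fold change of level. The difference, day 7 minus day 2 on the log2 scale, was -3.78 for Itgb2, -3.25 for Itgb5, -2.47 for Itgal, -2.34 for Itgav, -2.29 for Itga6, -2.16 for Itgb1, -1.92 for Itgam, -1.29 for Itga4 and 1.27 for Itgb8, with adjusted p from 6.55e-13 for Itgb5 to 2.84e-06 for Itgb8. The difference for Itgb8 was 0.92 with a pseudocount of 0.1, short of the fold threshold. The summed level of the microglial markers in ND1 cells was between 7778 and 8418 FPKM at day 2 and between 611 and 838 FPKM at day 7, and its part in the differences was not tested.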

How the results depend on the processing

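Leaving out each of the 15 libraries left the number of members called the same in all 8 comparisons: 2 in ND1 against control at day 2, 9 at day 7, 9 for the difference between the days, 2 in control day 7 against day 2, 10 in ND1 day 7 against day 2, 10 and 9 in neurons against control of day 2 and day 7, and 5 in ND1 day 7 against neurons. Without the fold threshold 9, 9 and 10 members passed in ND1 against control at day 2, in control day 7 against day 2 and in ND1 day 7 against neurons. The last count was 8 with a pseudocount of 0.1 and 8 with TPM, settings for which the share of all tested genes was not counted. With the replicate number as a block, 80 of 80 member changes kept their direction and their side of the threshold. TPM raised the median log2 change of all tested genes from 0.04 to 0.62 in ND1 against control at day 7, from -0.04 to 0.11 at day 2, from 0.11 to 0.54 for the difference of the ND1 effects, from 0.11 to 0.50 in ND1 day 7 against day 2, from 0.06 to 0.64 in neurons against control of day 7 and from 0.03 to 0.56 against that of day 2. Signs turned in the following. Itgax at day 2 was 0.14 with TPM and between -0.0611 and 0.0441 without 1 library. At day 7 it was 0.32 with TPM and between -0.0532 and 0.0059 without 1 library. Its difference between the days was 0.17 with TPM and between -0.0707 and 0.0345 without 1 library. Itgb5 at day 2 was 0.0256 with TPM, and Itga4 in ND1 day 7 against neurons was -0.10 after quantile normalization. The cause was not tested. The median remaining share at day 7 was 9.96% for the 4 leukocyte genes (9.50% to 10.2% without 1 library, 15.7% with TPM) and 12.7% for the other 6 (12.3% to 13.0% without 1 library, 20.0% with TPM, 9.57% with the neuronal mean subtracted). These medians include 2 members that did not fall, Itgax at 95.5% in the first group and Itgb8 at 770% in the second. The first median is the midpoint between Itgb2 at 5.72% and Itgam at 14.2%, so it describes no single gene. The ratio of β2 partners to Itgb2 in neurons was 0.992 without Itgad; leaving out 1 library gave ranges of 0.358 to 0.373 and 0.192 to 0.207 in control cells of day 2 and day 7, 0.281 to 0.284 and 0.349 to 0.387 in ND1 cells, and 1.11 to 1.17 in neurons.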
